A study of Oryza sativa Japonica Group with 27 samples.

Results

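The 9 nuclear genes described here encode subunits of photosystem I in rice (Oryza sativa Japonica Group), and they were taken by locus identifier from the transcript count tables of a Structure-seq2 series. They are PsaD (OS08T0560900), PsaE (OS07T0435300), PsaF (OS03T0778100), PsaG (OS09T0481200), PsaH (OS05T0560000), PsaK (OS07T0148900), PsaL (OS12T0420400), PsaN (OS12T0189400) and PsaO (OS04T0414700), which makes 9 of 35679 loci and 15 of 42132 transcripts. PsaD, PsaF and PsaL are listed with 3 transcripts each and the other 6 genes with 1 each. The tables carry identifiers only, so the subunit names are those assigned to the loci when the genes were chosen. The members were chosen by name and not by their counts, though with earlier results of these data known.

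Structure-seq2 probes RNA folding in living tissue with dimethyl sulfate (DMS), which methylates adenine and cytosine that are not base-paired, and reverse transcription stops at the methylated base. The series held 14 libraries of poly(A)-selected RNA from shoots of the cultivar Nipponbare at the age of 14 days. The standard protocol (90 °C denaturation with salt, reverse transcription at 55 °C, gel purification, T4 DNA ligase and Q5 polymerase) had 2 untreated libraries (-DMS) and 2 treated ones (+DMS), and the biotin variation, which labels the cDNA with biotin and pulls it down on streptavidin, had 2 of each as well. A further 6 kinds had 1 -DMS library each and changed a single step, namely Ex Taq (the polymerase of the PCR), Circligase (the ligase), agarose (the last gel), biotin only (biotin but gel purification), low RT reaction (50 °C for the reverse transcription) and low RT denaturation (no salt and 65 °C). All 14 libraries were read with the standard sequencing primer and 13, all but Circligase, also with a custom primer, so the 27 readings are not 27 independent samples. No genotype, mutant or growth treatment differed between the groups, and no label says whether replicates came from separate plants, so a p-value here measures only how these libraries spread, which may be technical.

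Photosystem I is the light-driven complex of the thylakoid membrane that takes electrons from plastocyanin in the lumen and passes them to ferredoxin in the stroma. Its reaction-centre core is encoded in the chloroplast genome, while the subunits described here are made from nuclear genes, translated in the cytosol and imported into the chloroplast. The complex is assembled with a fixed number of each subunit, and the comparison of interest was whether the mRNA counts of its subunits kept fixed ratios across library kinds, DMS treatment and primer.

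Library totals were 29777 to 410068 counts by the standard primer and 27118 to 468337 by the custom primer. The 9 genes together held 539 to 5407 counts per library with the standard primer, which was 1.32% to 2.35% of the total (median 1.61%), and 713 to 5547 counts with the custom primer, which was 1.17% to 2.63% (median 1.59%). Levels are in CPM, a count divided by the library total scaled with edgeR's TMM factor, and the lowest depth was that of the biotin variation -DMS replicate 1, in which 1 count was worth 20.0 CPM and its TMM factor was 1.68, against 2.41 CPM per count in the deepest standard-primer library. No source used here names molecular identifiers, so counting limits and intervals cover counting error only. The planned leaf, root and seed markers are not annotated in the tables used, and the labelled tissue was not checked against markers.

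The standard-primer table appeared to count reads at several transcripts of a locus at once, which bears on PsaD, PsaF and PsaL. The counting rule of the authors is not given in the sources used here. Across loci with 1, 2, 3 and 4 transcripts, the ratio of custom-primer to standard-primer counts summed over transcripts had medians of 1.76, 1.03, 0.788 and 0.601, whereas the ratio to the largest standard-primer transcript had medians of 1.76, 1.79, 1.81 and 1.81. The 6 subunit genes with 1 transcript had ratios of 1.70 (PsaE) to 2.02 (PsaK). The summed ratios of PsaD, PsaF and PsaL were 0.755, 0.777 and 0.880, and against their largest transcript they were 1.86, 2.03 and 1.85. If so, the standard-primer sums of these 3 genes would be higher than those of single-transcript genes for the same number of reads, and shares among the 9 genes are given below from the custom primer first.

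**Figure D1:**
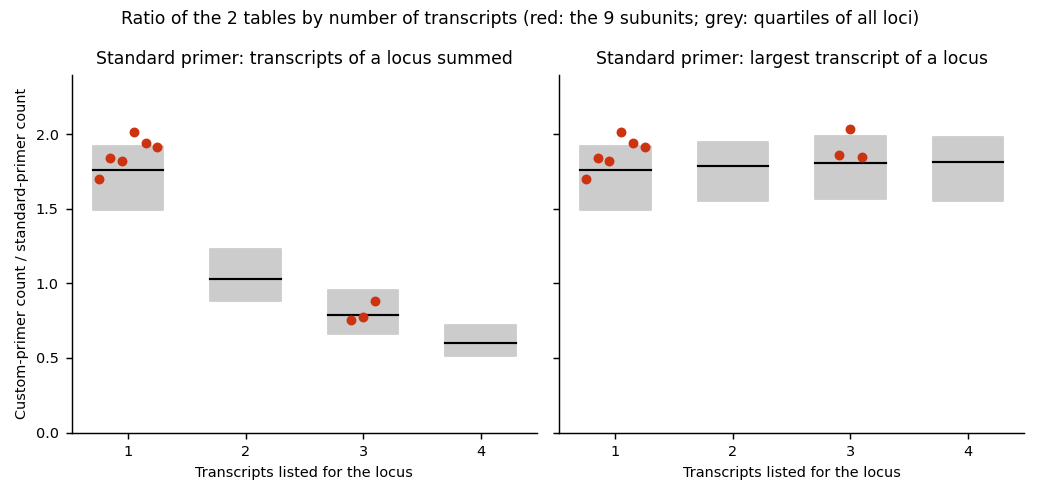
Ratio of custom-primer to standard-primer counts (y axis, no unit) by the number of transcripts listed for a locus (x axis), with transcripts summed (left) or the largest standard-primer transcript used (right). Grey boxes run from the lower to the upper quartile of all loci with their median as a line, and red points are the 9 subunits: the summed ratios of PsaD, PsaF and PsaL lie between 0.755 and 0.880 and rise to between 1.85 and 2.03 with the largest transcript.

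Between protocols, PsaF and PsaK rose in the biotin variation, and PsaE and PsaN had lower levels there that did not pass the edgeR test with the standard primer. The comparison used all 8 replicated libraries read with the standard primer and asked whether 4 libraries of the biotin variation differed from 4 of the standard protocol, with DMS as a term. By edgeR's quasi-likelihood test with Benjamini-Hochberg adjustment over 5530 loci, 2 of the 9 genes were called higher, beside 2.08% of all loci, and 0 were called lower, beside 2.03%. The median log2 change was 0.43 over the 9 genes and -0.23 over all loci tested. With other size factors (RLE) the median over all loci was -0.42, a shift of the whole scale, and the calls over all loci were 91 higher and 210 lower in place of 115 and 112. With library totals alone they were 113 and 195.

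On the stromal side, PsaD and PsaE form with the chloroplast-encoded PsaC the surface on which ferredoxin docks, and neither passed the test between protocols. PsaD (OS08T0560900) stood at 4359 and 5493 CPM in the standard protocol -DMS, 4150 and 3779 in the standard protocol +DMS, 2845 and 5158 in the biotin variation -DMS and 9617 and 8085 in the biotin variation +DMS. Its protocols overlapped, because in TMM-scaled CPM the biotin variation held both its lowest and its highest library. The log2 change was 0.58 (SE 0.276, edgeR adjusted p = 0.204). PsaE (OS07T0435300) stood at 615 and 673 CPM in the standard protocol -DMS and 678 and 708 in +DMS, against 260 and 220 in the biotin variation -DMS and 455 and 374 in +DMS. Every biotin variation library lay below every standard protocol library (327 ± 107 against 669 ± 39.1 CPM, SD, n = 4 each), as was so for 14.2% of all loci. The log2 change of PsaE was -0.91 (SE 0.357, edgeR adjusted p = 0.134), which did not pass the threshold. With the custom primer it was -0.94 (SE 0.373, edgeR adjusted p = 0.0802), again without overlap. PsaE was called lower by DESeq2, at -1.11 (DESeq2 adjusted p = 0.00511), and without the biotin variation -DMS replicate 1, at -1.07 (edgeR adjusted p = 0.0380).

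On the lumenal side, PsaF, which in plants and green algae helps plastocyanin to bind, and PsaN, a small peripheral subunit also linked to plastocyanin, had changes of opposite sign. PsaF (OS03T0778100) stood at 2297 and 2436 CPM in the standard protocol -DMS, 2592 and 2998 in +DMS, 2364 and 5243 in the biotin variation -DMS and 6961 and 6078 in +DMS. The groups overlapped only through the biotin variation -DMS replicate 1, the shallowest library. Its TMM factor of 1.68 lowers its CPM, and by library totals alone (118 of 29777 counts) the groups did not overlap. PsaF rose by 1.10 on the log2 scale (SE 0.260, edgeR adjusted p = 0.0393), and by 1.16 without that library (edgeR adjusted p = 0.0123). PsaN (OS12T0189400) stood at 720 and 707 CPM in the standard protocol -DMS, 368 and 303 in +DMS, 0 and 85.0 in the biotin variation -DMS and 235 and 432 in +DMS. The biotin variation -DMS libraries were the lowest of all 14, with 0 and 12 counts. In replicate 1 the count of 0 allows a level of up to 60.1 CPM (3 counts). The log2 change of PsaN was -1.52 (SE 0.674, edgeR adjusted p = 0.177). Read with the custom primer, PsaN had 1 and 11 counts in the same libraries, and its log2 change of -1.56 (SE 0.498, edgeR adjusted p = 0.0286) passed.

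On the side that faces the light-harvesting antenna of photosystem I, PsaG and PsaK are related membrane proteins at opposite ends of the antenna belt. PsaK (OS07T0148900) stood at 1140 and 978 CPM in the standard protocol -DMS, 707 and 453 in +DMS, 2504 and 1956 in the biotin variation -DMS and 1379 and 2036 in +DMS. Every biotin variation library lay above every standard protocol library (1969 ± 462 against 820 ± 303 CPM, SD, n = 4 each), as was so for 3.44% of all loci. PsaK rose by 1.49 on the log2 scale (SE 0.311, edgeR adjusted p = 0.0261). With the custom primer the rise was 1.78 (SE 0.318, edgeR adjusted p = 6.15e-05), and the highest level, 6563 CPM, was again that of the biotin variation -DMS replicate 1. Without this library the standard-primer rise was 1.27 (edgeR adjusted p = 0.0245). PsaG (OS09T0481200) stood at 1003 and 822 CPM in the standard protocol -DMS, 621 and 381 in +DMS, 140 and 581 in the biotin variation -DMS and 659 and 834 in +DMS. Its groups overlapped, and its log2 change was -0.20 (SE 0.439, edgeR adjusted p = 0.811).

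On the side where light-harvesting complex II docks during state transitions, the short-term shift of antenna between the photosystems, lie PsaH, PsaL and PsaO, and none of these passed the test. PsaH (OS05T0560000) stood at 825 and 848 CPM in the standard protocol -DMS, 649 and 561 in +DMS, 421 and 567 in the biotin variation -DMS and 1016 and 1057 in +DMS, and its log2 change was 0.19 (SE 0.349, edgeR adjusted p = 0.780), or just below 0 with RLE factors. PsaL (OS12T0420400) stood at 2976 and 3161 CPM in the standard protocol -DMS, 3454 and 3441 in +DMS, 2124 and 3819 in the biotin variation -DMS and 5945 and 4582 in +DMS, and its log2 change was 0.43 (SE 0.252, edgeR adjusted p = 0.303). PsaO (OS04T0414700) stood at 833 and 703 CPM in the standard protocol -DMS, 414 and 397 in +DMS, 140 and 751 in the biotin variation -DMS and 1338 and 798 in +DMS, and its log2 change was 0.48 (SE 0.472, edgeR adjusted p = 0.569). In standard-primer TMM-scaled CPM the biotin variation -DMS replicate 1 was the lowest library of the 8 for PsaH, PsaL and PsaO. A biotin variation +DMS library was the highest for each. The TMM factor of 1.68 lowers the CPM of that replicate, and by library totals alone it was the lowest for PsaO only. PsaL held 106 of 29777 counts there, against 368 of 124680 in the standard protocol -DMS replicate 1. PsaH held 21 of 29777, against 233 of 410068 in the standard protocol +DMS replicate 2. With the custom primer every biotin variation library of PsaL lay above every standard protocol library, as was so for 2.59% of 6514 loci. They stood at 2604 to 5171 CPM, against 2248 to 2520.

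**Figure D2:**
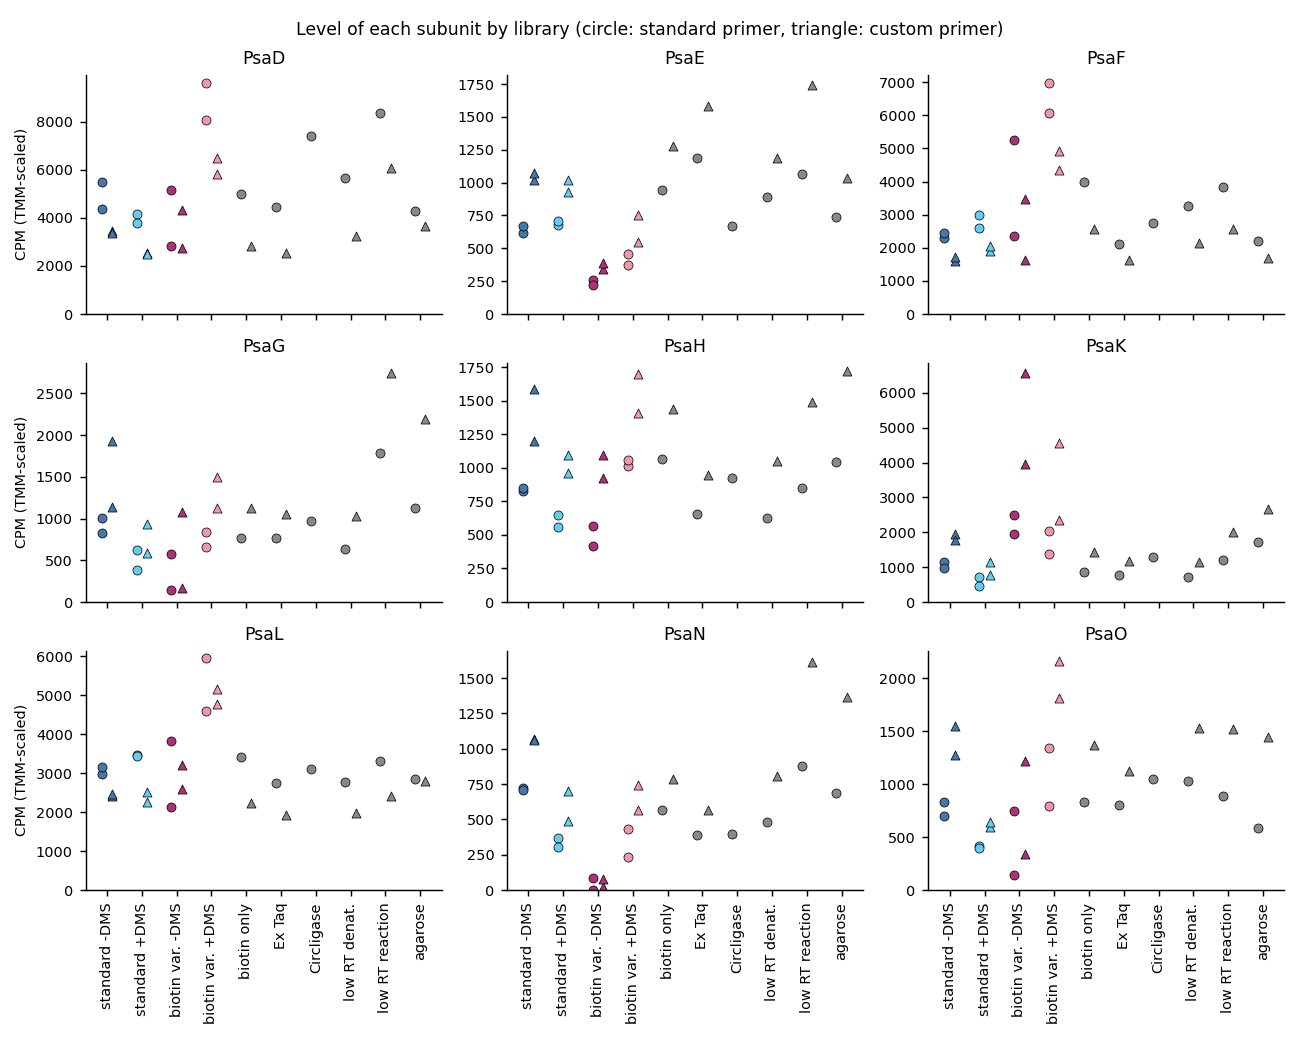
Level of each subunit in TMM-scaled CPM (y axis, from 0, scaled per panel) for each kind of library (x axis), with 1 point per library. Circles are standard-primer and triangles custom-primer readings: PsaE lies at 220 to 455 CPM in the biotin variation and at 615 to 708 in the standard protocol (standard primer), PsaK shows the opposite order, and PsaN is at 0 and 85.0 CPM in the biotin variation -DMS.

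The 2 calls between protocols rested on few libraries. Leaving out any 1 of the standard protocol libraries, or the biotin variation +DMS replicate 2, left 0 of the 9 genes called. Over these fits PsaF (OS03T0778100) had log2 changes of 0.86 to 1.12 with edgeR adjusted p of 0.115 to 0.180. PsaK (OS07T0148900) had log2 changes of 1.17 to 1.57 with edgeR adjusted p of 0.0803 to 0.110. PsaF also missed the threshold without the biotin variation -DMS replicate 2 (0.96, edgeR adjusted p = 0.0990) and without the +DMS replicate 1 (0.91, edgeR adjusted p = 0.128). With no filter on low counts, which raised the number of loci tested to 24546, the log2 changes were 0.68 for PsaF (edgeR adjusted p = 0.189) and 1.04 for PsaK (edgeR adjusted p = 0.135).

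Relative to the summed counts of the 9 genes, PsaE and PsaN fell in the biotin variation, and PsaK passed in the other direction in some of the fits only. When each library was scaled by the summed counts of the 9 genes in place of the TMM factors, 2 of the 9 were called lower in the biotin variation, beside 16.8% of all loci, and 0 higher, beside 1.05%. The share of 2 in 9 is close to that of all loci, whose median on this scale was -0.89, so the number of calls says nothing particular about the set. The fit bears on each gene's ratio to the sum, which includes the gene itself. The adjustment ran over all 5530 loci, 989 of them called, and more calls set a looser cutoff for each gene. On this scale the log2 change of PsaE (OS07T0435300) was -1.52 (SE 0.364, edgeR adjusted p = 0.0177). That of PsaN (OS12T0189400) was -2.18 (SE 0.634, edgeR adjusted p = 0.0325). The other 7 genes did not pass with the summed standard-primer counts. PsaK (OS07T0148900) was highest among them at 0.95 (SE 0.342, edgeR adjusted p = 0.0638). PsaD (OS08T0560900), at -0.02 (SE 0.230), and PsaL (OS12T0420400), at -0.17 (SE 0.238), lay nearest to 0, with PsaO (OS04T0414700) at -0.19 (SE 0.414). With the custom primer 3 genes passed, PsaE at -1.65 (edgeR adjusted p = 0.000644), PsaN at -2.31 (edgeR adjusted p = 0.000160) and PsaK at 1.09 (edgeR adjusted p = 0.00772), beside 54 of all 6514 loci higher and 2143 lower. With the largest transcript of each locus, PsaE, PsaN and PsaK passed too, PsaK at 1.01 (edgeR adjusted p = 0.0439). PsaK also passed without the biotin variation -DMS replicate 2, at 1.09 (edgeR adjusted p = 0.0445).

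PsaE and PsaN did not pass in every subset of libraries on the relative scale. PsaE (OS07T0435300) missed the threshold without the standard protocol +DMS replicate 1 (-1.50, edgeR adjusted p = 0.0515) and without replicate 2 (-1.45, edgeR adjusted p = 0.0513). PsaN (OS12T0189400) missed it without the standard protocol -DMS replicate 1 (-2.03, edgeR adjusted p = 0.0607), without replicate 2 (-2.07, edgeR adjusted p = 0.0518), without the biotin variation -DMS replicate 2 (-1.76, edgeR adjusted p = 0.0811) and without the biotin variation +DMS replicate 1 (-2.16, edgeR adjusted p = 0.0628). Without the shallowest library, the biotin variation -DMS replicate 1, PsaE was at -1.75 (edgeR adjusted p = 0.00433) and PsaN at -1.72 (edgeR adjusted p = 0.0395).

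**Figure D3:**
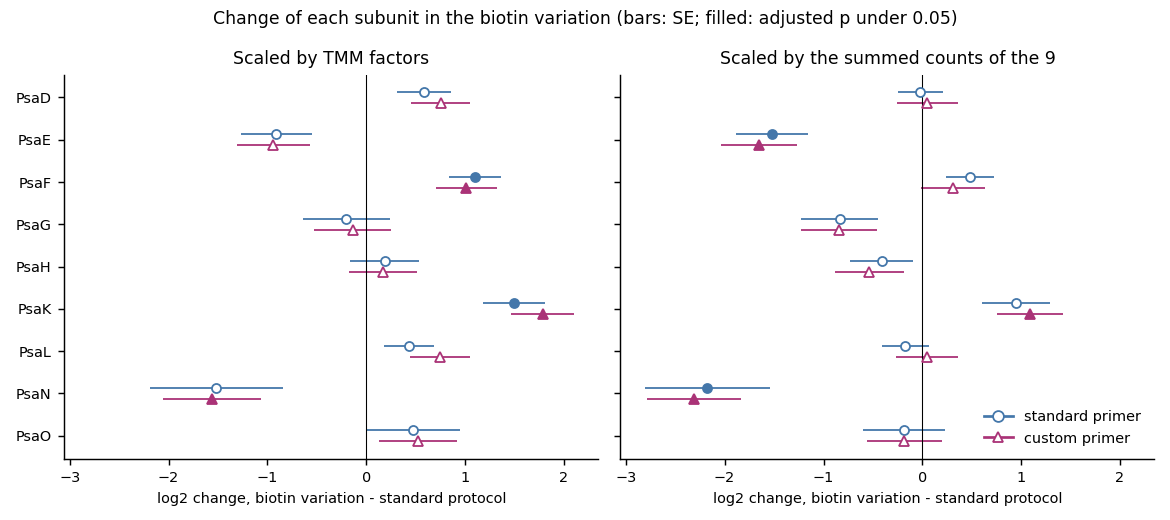
Log2 change of each subunit in the biotin variation against the standard protocol (x axis; bars are SE) with TMM scaling (left) and with scaling by the summed counts of the 9 genes (right), from 4 against 4 libraries. Filled symbols passed an adjusted p of 0.05: PsaF (OS03T0778100) at 1.10 and PsaK (OS07T0148900) at 1.49 on the left, and PsaE (OS07T0435300) at -1.52 and PsaN (OS12T0189400) at -2.18 on the right, with the standard primer.

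Shares among the 9 genes show the same differences read by read. They are shares of counts and not of molecules, because no transcript lengths were used. With the custom primer PsaE took 6.15%, 7.13%, 8.36% and 8.11% of the counts in the standard protocol libraries (mean 7.44% ± 1.01, SD, n = 4) and 2.24%, 2.05%, 3.03% and 2.13% in the biotin variation (mean 2.36% ± 0.449, SD, n = 4). PsaN took 6.45%, 7.05%, 5.73% and 4.27% under the standard protocol, against 0.140%, 0.411%, 2.28% and 2.89% in the biotin variation. Neither gene's groups overlapped, with either primer and with summed or largest transcripts. PsaH also had no overlap in the custom-primer readings (8.74% ± 0.689 against 6.02% ± 0.404, SD, n = 4 each), but it overlapped with the standard primer. Overlap on this scale was not counted over all loci. Their median log2 change relative to the sum was -1.05 with the custom primer, so nothing particular to these genes is read from the lack of overlap. Within a library a larger share of PsaK also takes from the shares of the other genes, and its part here was not tested. PsaD took 21.5% ± 0.723 under the standard protocol and 22.3% ± 3.38 in the biotin variation (SD, n = 4 each), and PsaL took 17.9% ± 3.17 and 18.3% ± 1.76, and the libraries of both genes overlapped between protocols.

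Within the biotin variation the share of PsaK had the widest spread in percentage points, while in fold terms that of PsaN was wider, 20.6-fold against 4.55-fold for PsaK. In the custom-primer readings it took 11.8%, 11.8%, 9.39% and 6.76% under the standard protocol, against 42.8%, 21.0%, 9.40% and 17.7% in the biotin variation. The share of 42.8% (305 of 713 counts, exact Clopper-Pearson 95% interval 39.1% to 46.5%) came from the -DMS replicate 1, and its replicate's share of 21.0% (interval 19.5% to 22.6%) lay outside that interval. Counts of the 9 genes differed between these 2 replicates with a chi-square of 22.0 per degree of freedom, beside 36.7 over all loci with at least 100 counts in the pair. In the other 3 pairs the chi-square per degree of freedom of the 9 genes was 5.53 (standard protocol -DMS), 7.44 (standard protocol +DMS) and 19.6 (biotin variation +DMS), beside 2.50, 3.56 and 5.86 over such loci. With the standard primer the 9 genes had 3.15 and 5.16 (standard protocol -DMS and +DMS) and 10.8 and 10.5 (biotin variation -DMS and +DMS). Such loci had 6.83, 7.04, 29.4 and 6.19, so the order turned in the standard protocol. The statistic rises with counts, and these loci were not matched to the 9 genes in depth. Replicates thus differed by more than counting error in their mix of subunits in each of the 4 pairs.

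**Figure D4:**
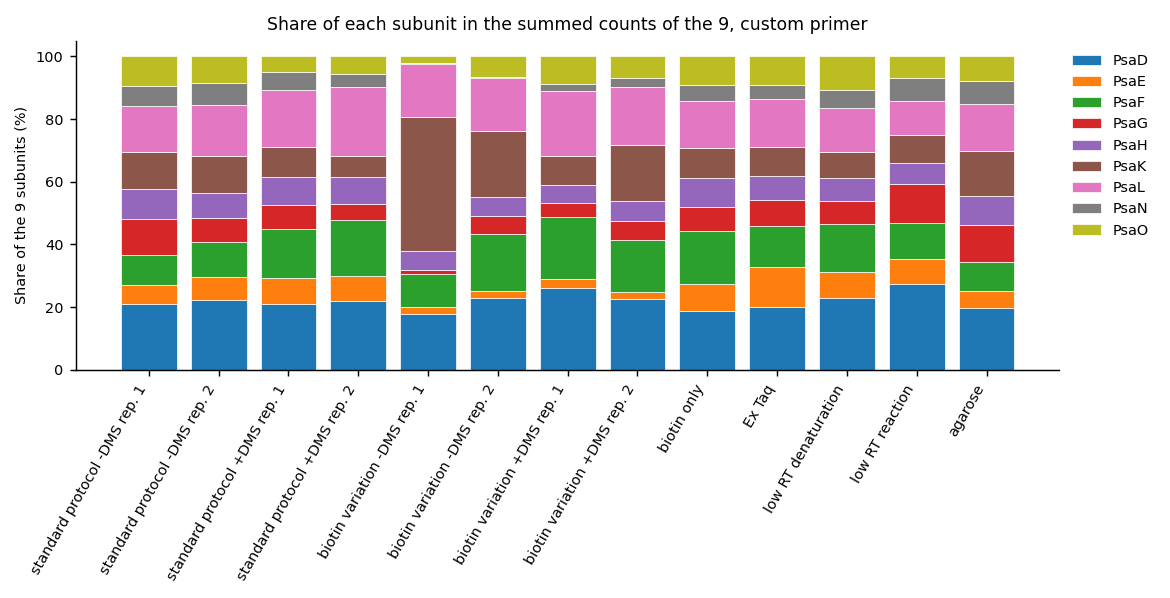
Share of each subunit in the summed counts of the 9 genes (y axis, percent) in each of the 13 libraries read with the custom primer (x axis). In the 4 biotin variation libraries PsaE takes 2.05% to 3.03% and PsaN 0.140% to 2.89%, and PsaK takes 42.8% in the -DMS replicate 1.

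The ratios between subunits were not fixed across libraries, and pairs differed in how far their ratio moved. Over the 13 custom-primer libraries, the SD of the log2 ratio had a median of 0.847 over 36 pairs, and counting error alone would give a median of 0.169. Replicates differed by more than counting error over all loci too, by the chi-square values above, and pairs of other loci were not compared. The steadiest pair was PsaF with PsaL (SD 0.321, a 1.88-fold range), followed by PsaD with PsaL (0.333) and PsaD with PsaF (0.359). These are the 3 genes listed with several transcripts. They also held the most custom-primer counts, 6997 to 10557 over the 13 libraries, against at most 5288 for the others. The pair with the widest range was PsaK with PsaN (SD 2.24), whose ratio ran over a 163-fold range, set by the 305 counts of PsaK and 1 count of PsaN in the biotin variation -DMS replicate 1 (0.5 was added to each count). Outside the biotin variation the order of the pairs was another one. There the median SD over pairs was 0.424 (9 libraries), PsaK with PsaN was the steadiest pair (SD 0.224, a 1.64-fold range), and PsaF with PsaG the least steady (SD 0.738, a 4.46-fold range). With the standard primer outside the biotin variation the steadiest pair was PsaF with PsaL (SD 0.277).

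**Figure D5:**
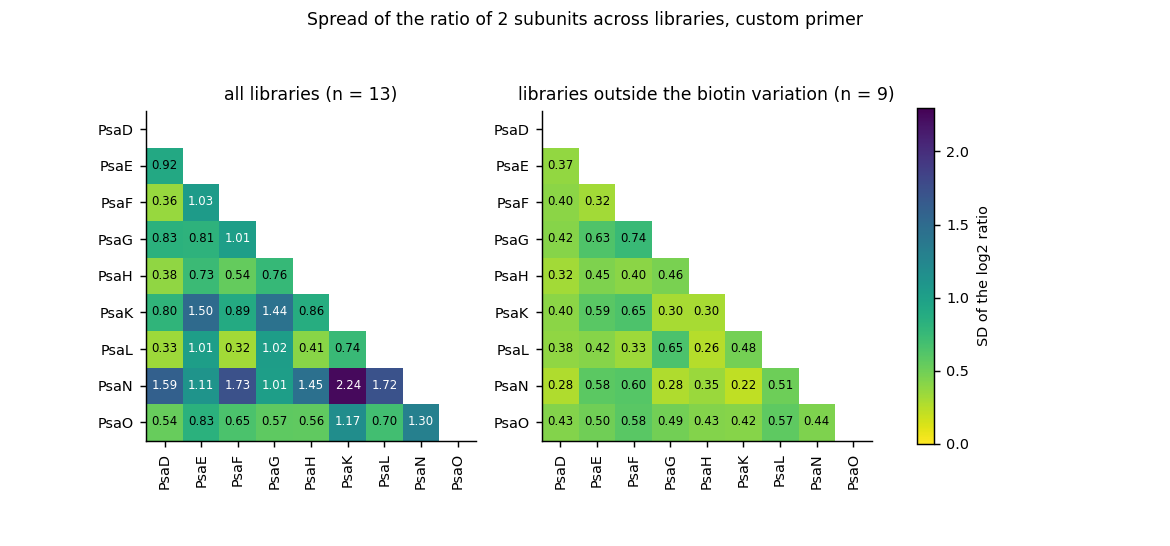
SD of the log2 ratio of 2 subunits across libraries (colour and printed value, log2 units) for each pair, custom primer, over all 13 libraries (left) and over the 9 outside the biotin variation (right). Rows and columns of PsaN and PsaK are the darkest on the left, up to 2.24, and on the right no pair exceeds 0.74.

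No subunit gene passed the test for a change with DMS in the standard-primer readings. Over both protocols 0 of 9 were called, beside 0.127% of all loci (7 of 5530 by edgeR, with 558 at an unadjusted p under 0.05 and 177 called by DESeq2). PsaK (OS07T0148900) had the lowest unadjusted p of the 9 genes, at -0.82 on the log2 scale (SE 0.307, edgeR adjusted p = 0.334). The other 8 lay between -0.10 (PsaG, OS09T0481200) and 0.37 (PsaN, OS12T0189400). Relative to the sum of the 9 genes, 0 were called, beside 0.0181% of all loci (1 by edgeR, with 553 at an unadjusted p under 0.05), and PsaK was at -1.01 (SE 0.343, edgeR adjusted p = 0.328). The share of PsaL in the custom-primer readings was 18.5% to 22.0% in the 4 +DMS libraries and 14.6% to 17.0% in the 4 replicated -DMS libraries, without overlap, whereas the standard-primer shares overlapped. Of the 9 genes only PsaL was without overlap there, and such shares were not counted over all loci. In custom-primer CPM 0 of the 9 were without overlap, beside 6.19% of 6514 loci higher with DMS and 0.890% lower.

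In TMM-scaled CPM the 9 genes lay on both sides of their -DMS libraries in the standard protocol, and 8 of them lay above in the biotin variation. In the standard protocol 6 genes (PsaD, PsaG, PsaH, PsaK, PsaN and PsaO) had both +DMS libraries below both -DMS libraries, as had 23.7% of all loci, and 3 (PsaE, PsaF and PsaL) had both above, as had 27.2%. Read with the custom primer, 7 genes lay below, beside 28.1% of all loci, and 1 (PsaF) above, beside 27.9%. PsaE had thus turned from above to below, and PsaL overlapped. With the standard primer none was called, beside 0.127% of all loci (7 by edgeR, with 336 at an unadjusted p under 0.05 and 49 called by DESeq2). In the biotin variation 8 of the 9, all but PsaK, had both +DMS libraries above both -DMS libraries, as had 38.5% of all loci. Again none was called, beside 0.181% of all loci (10 by edgeR, with 949 at an unadjusted p under 0.05 and 140 called by DESeq2). The depths moved with these groups, since the biotin variation -DMS libraries had 29777 and 135804 counts and the +DMS libraries 230303 and 155923, and their part in the result was not tested. By library totals alone, PsaE, PsaF, PsaG and PsaO overlapped in the biotin variation, and PsaK lay below. PsaE held 13 of 29777 counts in the -DMS replicate 1, against 89 of 230303 in the +DMS replicate 1. Overlap by library totals was not counted over all loci. Without the biotin variation -DMS replicate 2, which leaves the 29777-count library alone in its group with its spread assumed to be like that of the other groups, 4 genes were called higher, beside 312 of all 5287 loci tested there. In that fit the median log2 change was 4.37 over all loci and 0.97 over the 9 genes, and fitted changes of loci at 0 in the lone library depend on the prior count, so nothing particular to the subunits is read from these calls. The genes called were PsaD (OS08T0560900) at a log2 change of 1.15 (edgeR adjusted p = 0.0271), PsaF (OS03T0778100) at 0.97 (edgeR adjusted p = 0.0410), PsaO (OS04T0414700) at 2.44 (edgeR adjusted p = 0.0271) and PsaN, for which no fold is given because the lone library held 0 counts.

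PsaN had the largest estimated difference in DMS response between the protocols among the 9 genes. In the standard protocol its log2 change with DMS was -1.08 (SE 0.602, edgeR adjusted p = 0.952), and in the biotin variation it was 2.31 (SE 0.738, edgeR adjusted p = 0.161). In counts, PsaN (OS12T0189400) went from 89 and 190 to 64 and 126 under the standard protocol, whereas the biotin variation took it from 0 and 12 to 46 and 60. The interaction, a test of the difference itself, gave 3.39 (SE 0.953, edgeR adjusted p = 0.351), and 0 of the 9 genes were called in it, beside 0.0181% of all loci (1 by edgeR, with 616 at an unadjusted p under 0.05 and 37 called by DESeq2). DESeq2 called PsaN in this comparison with a log2 difference of 3.48 (DESeq2 adjusted p = 0.0360). With the custom primer the counts in the biotin variation were 1 and 11 without DMS and 115 and 95 with it. There the difference of 4.07 (SE 0.737, edgeR adjusted p = 0.0201) passed, as did the log2 change of 3.26 within the biotin variation (SE 0.587, edgeR adjusted p = 0.0178). The other 8 genes had log2 differences of 0.09 (PsaK, OS07T0148900) to 1.82 (PsaO, OS04T0414700) with the standard primer, and those of PsaF and PsaK fell below 0 with library totals alone. Without the biotin variation -DMS replicate 2 the median log2 difference was 4.24 over all loci and 1.29 over the 9 genes, and 3 genes were called, beside 103 of 5287 loci higher. They were PsaN, PsaO at 3.37 (edgeR adjusted p = 0.0283) and PsaD (OS08T0560900) at 1.47 (edgeR adjusted p = 0.0464).

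Among the 6 kinds with 1 library there is no replicate check, and the values are set beside the 2 standard protocol -DMS libraries with exact Poisson intervals for counting error. A gene is said to lie above or below where its interval clears both of these libraries with both primers, and the same was counted over the 444 loci with a mean of at least 50 counts by each primer. In the low RT reaction library 5 of the 9 genes lay above, namely PsaD, PsaE, PsaF, PsaG and PsaN, beside 22.5% of those loci, and 0 lay below, beside 16.7%. PsaG stood at 2741 CPM (interval 2540 to 2954) with the custom primer, against 1136 and 1932 in the standard protocol -DMS. PsaD stood at 6069 CPM (interval 5768 to 6382), against 3361 and 3453, and PsaN at 1614 CPM (interval 1461 to 1780), against 1062 and 1069. The summed level of the 9 genes in this library was 22163 CPM with the custom primer and 22168 CPM with the standard primer, beside 14767 and 15820 CPM in the standard protocol -DMS libraries with the standard primer.

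In the Ex Taq library 1 of the 9 genes, PsaE, lay above, beside 14.4% of loci, and 4 lay below, PsaH, PsaK, PsaL and PsaN, beside 27%. PsaE stood at 1587 CPM (interval 1455 to 1727) with the custom primer, against 1019 and 1074, and took 12.7% of the counts of the 9 genes, its highest share in any of the 13 libraries. PsaN stood at 568 CPM (interval 491 to 655), against 1062 and 1069. In the biotin only library PsaE and PsaF lay above, beside 24.3% of loci, and PsaK and PsaN below, beside 10.8%. With the custom primer its PsaE level was 1281 CPM (interval 1161 to 1409), beside 344 to 755 CPM in the biotin variation. PsaK was at 1430 CPM (interval 1304 to 1566), beside 2344 to 6563. PsaF was at 2558 CPM (interval 2388 to 2737), beside 1635 to 4930. PsaN was at 784 CPM (interval 691 to 886), beside 21.5 to 747. PsaE and PsaK thus lay on the other side of the standard protocol -DMS libraries from their change in the biotin variation, and PsaF and PsaN on the same side. With 1 library, the part of biotin was not tested.

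In the low RT denaturation library PsaF lay above, beside 13.7% of loci, and PsaH, PsaK and PsaN lay below, beside 11.5%. In the agarose library PsaK lay above, as 1 of 2 such loci (0.45%), at 2676 CPM (interval 2372 to 3008) with the custom primer against 1772 and 1948. The Circligase library was read with the standard primer only, by which 532 loci had a mean of at least 50 counts. There PsaD (7429 CPM, interval 6975 to 7905), PsaF (2735, interval 2462 to 3029) and PsaO (1051, interval 884 to 1239) lay above, beside 36.8% of loci, and PsaN (395, interval 296 to 517) lay below, beside 15.8%. The standard-primer intervals of PsaD and PsaF may be too narrow if their reads were counted at several transcripts. With 9 genes and 1 library a kind, nothing particular to the subunits is read from these counts.

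Within the 3 multi-transcript genes, the third transcript of PsaL had the share that varied most, for its mean, from library to library. The first 2 transcripts of PsaL (OS12T0420400-01 and OS12T0420400-02) differed by 0 to 22 counts in the 14 standard-primer libraries (median 1.50% of both) and by 1 to 65 counts in the 13 custom-primer libraries (median 5.51%). The third, OS12T0420400-03, held 22 to 41 counts in the standard protocol with the custom primer, 1.90% to 7.46% of the PsaL counts. In the biotin variation it held 17, 4, 5 and 3 counts, which was 14.0%, 0.877%, 0.477% and 0.494%. The group overlap came from the -DMS replicate 1 alone (17 of 121 counts, exact Clopper-Pearson 95% interval 8.40% to 21.5%). Ex Taq had the most counts of this transcript with either primer, 118 of 776 with the standard and 57 of 652 with the custom primer. In PsaD the first transcript took 39.9% to 52.5% of the custom-primer counts over all 13 libraries, and in PsaF it took 30.3% to 49.5%.

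Between primers all 9 genes differed, 6 higher with the custom primer, beside 18.3% of all 8897 loci tested, and 3 lower, beside 21.1%. The comparison was made within 13 libraries with library as a block, and readings of 1 library are not replicates of a condition. The 6 higher genes are those with 1 transcript, from PsaE (OS07T0435300) at 0.39 on the log2 scale (SE 0.0635, edgeR adjusted p = 3.56e-06) to PsaK (OS07T0148900) at 0.68 (SE 0.0625, edgeR adjusted p = 7.59e-12). When only loci listed with 1 transcript were fitted, 5 of these 6 were called higher, beside 237 of 5522 loci. In that fit 0 were called lower, beside 729. The 3 lower genes are those with 3 transcripts, PsaD (OS08T0560900) at -0.70, PsaF (OS03T0778100) at -0.68 and PsaL (OS12T0420400) at -0.49. With the largest standard-primer transcript per locus in place of the sum, these turned to 0.24, 0.35 and 0.23, and 8 genes were called higher and 0 lower, PsaE being the gene that did not pass. Library totals alone gave 2571 loci higher and 1486 lower in place of 1627 and 1881, with the same 6 and 3 directions among the 9 genes.

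The spread of single subunits across libraries was set beside that of all well-counted loci, the 9 genes among them. The SD of log2(CPM + 1) over the 14 standard-primer libraries had a median of 0.694 over the 9 genes, beside 0.847 over 532 loci with a mean of at least 50 counts, which were not matched to the 9 genes in depth. Outside the biotin variation the medians were 0.375 and 0.528. PsaL was the steadiest there (SD 0.129) and PsaG the least steady (0.590), while over all 14 libraries PsaN reached 2.48 through its count of 0. These are descriptions of 14 libraries, and the difference from all well-counted loci was not tested.

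Correlations between subunits across libraries were mixed, and they share library depth and scaling. Over the 14 standard-primer libraries, Pearson's r of log2(CPM + 1) had a median of 0.402 over 36 pairs, from -0.700 (PsaE with PsaK) to 0.877 (PsaG with PsaN), and 6 pairs were negative. Outside the biotin variation (10 libraries) PsaE with PsaK stood at -0.096 and PsaG with PsaN at 0.812. With the custom primer PsaG with PsaN stood at 0.821 over 13 libraries and at 0.924 over the 9 outside the biotin variation. PsaF with PsaL stood at 0.845 over 14 standard-primer libraries and at 0.543 over the 10 outside the biotin variation. With the custom primer this pair stood at 0.818 over 13 libraries and at -0.112 over the 9 outside the biotin variation. Of 523 other loci with a mean of at least 50 counts, those with the pattern most like the summed 9 genes over the 14 libraries were OS03T0203200 (r = 0.885) and OS12T0563600 (r = 0.877), beside a median r of 0.295, and OS12T0563600 was also among the 5 most alike with the custom primer (r = 0.839).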

How the data were processed

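Shoot RNA was poly(A)-selected and made into cDNA libraries by reverse transcription, ligation and PCR, per the labels' protocols. The authors deposited 1 table of transcript counts (whole numbers, not normalized) per sequencing primer. Of tools, cutadapt and Bowtie2 are named, per the submitters' processing notes. No source used here gives their versions, the build or the counting rule, and 0 columns lay outside the labels.

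Counts were summed per locus. A locus was tested when 2 or more fitted libraries held 10 or more counts, by the quasi-likelihood test of edgeR 4.0.16 (limma 3.58.1, R 4.3.3) with TMM factors and Benjamini-Hochberg adjustment over all loci, and 0.05 was the threshold. DMS over both protocols and the protocols were fitted with both terms over 8 libraries (standard primer), DMS within a protocol with 1 mean per kind (4 residual degrees of freedom), and primers with library as a block. SE is the log2 change over the square root of F. In the relative fits the library size was the summed count of the 9 genes. Alternatives were RLE factors, library totals, no filter, DESeq2 1.42.0, single transcripts, the other primer or both primers summed, a replicate block and leaving out each library. The largest transcript per locus and loci with 1 transcript were added after seeing the data. Only the TMM-scaled fit between protocols was tested on simulated counts, drawn with the same spread for every locus.

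The rule for named genes took all 9 members and the 5 loci most alike in pattern, of which 2 are printed. The members and lists were chosen with earlier results of these data known. Planned lists of other photosynthesis genes and tissue markers were not used, since no table used here annotates their identifiers.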

Additional observations from a re-analysis of the deposited data

Results flagged for a closer look

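PsaN (OS12T0189400) was singled out because its response to DMS differed between the protocols by a test of the difference itself in the custom-primer readings, where the log2 difference was 4.07 (SE 0.737, edgeR adjusted p = 0.0201). Both biotin variation -DMS libraries held few PsaN counts there, 1 and 11, and the +DMS libraries held 115 and 95. With the standard primer the difference was 3.39 and did not pass (edgeR adjusted p = 0.351). The part of the low counts in this difference was not tested.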

How the results depend on the processing

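Limits were few libraries (2 per group) and low depth. Counts of loci called moved as follows. Without the filter, calls were 19 (DMS, both protocols), 604 (protocol, 0 subunits), 92 (DMS, biotin variation) and 17 (difference of DMS effects). DESeq2 called 177 (DMS, both), 901 (protocol), 49 and 140 (DMS, standard and biotin) and 37 (difference, 1 subunit). Single transcripts gave 34, 584, 47, 44 and 7 in that order, and 5310 for the primer. Custom-primer readings gave 76, 765, 52, 45 (1 subunit) and 12 (1 subunit), with 2197 and 73 for the relative protocol and DMS fits. The sum of both readings gave 430 for the protocol and 0 for DMS in the standard protocol, in the biotin variation and for the difference. Library totals gave 11 and 29 for DMS in the standard and biotin protocols. The largest transcript gave 371 (protocol), 15 and 24 (DMS, standard and biotin) and 3 (relative DMS).

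For the primer, the largest standard transcript gave 1330 calls and turned PsaD, PsaF and PsaL to 0.24, 0.35 and 0.23. Loci with 1 transcript gave 966 calls, with 5 of 6 subunits. These 2 alternatives take 1 transcript per locus, and the cause of the other shifts was not tested.

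With the replicate block, 36 loci and 1 subunit (PsaK, log2 1.51) were called between protocols, while PsaF (OS03T0778100) missed the threshold at 1.09 (edgeR adjusted p = 0.0638), and 6 loci for DMS in the biotin variation. It changed no other count of subunits called. Same-numbered libraries deviated together only weakly (r from -0.065 to 0.152 over 6 pairs of kinds), and the labels do not pair them.

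Leaving out 1 library gave 0 to 71 calls (DMS, both), 6 to 501 (protocol, 0 to 3 subunits), 0 to 100 (DMS, standard), 0 to 437 (DMS, biotin, 0 to 4 subunits), 0 to 122 (difference, 0 to 3 subunits), 3086 to 3491 (primer, 9 subunits), 267 to 1253 (relative protocol, 1 to 2 subunits) and 1 to 95 (relative DMS). Calls of 0 subunits for DMS in both protocols, in the standard protocol and relative to the sum held in every such fit. Counts per kilobase were not run, since no lengths were used.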
